A study of Mus musculus with 68 samples.

Results

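The genes of the cytosolic ribosomal proteins were followed across 68 RNA-seq libraries of mouse pharyngeal arches. Members were the rows of the deposited table whose mouse symbol is Rpl or Rps with a number, with or without a letter and a further digit, together with Rplp0, Rplp1, Rplp2 and Rpsa. Symbols ending in -ps, which mark pseudogenes, were left out. The rule took 85 of the table's 21948 rows, 50 with large-subunit symbols (Rpl) and 35 with small-subunit symbols (Rps). The annotation calls 80 of them protein coding and 5 pseudogenes (Rpl6l, Rpl32l, Rps3a2, Rps3a3 and Rps4l). All 85 passed the filter on low values, and the lowest value of any member in any library was 5.89, in the unit described next.

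The arches are paired bulges of the embryonic head and neck, and PA1 (the jaw arch) and PA2 (the arch behind it) were cut out by hand from embryos at E9.0, E9.5, then E10.0, and last E10.5 (days after conception). Every embryo carried the strain label CBA/Ca/J x C57BL/10 and the genotype label wildtype or Hoxa2-/-. Hoxa2 is a homeobox gene that gives PA2 its identity. The labels name no driver, transgene or treatment, and how the allele was made is not given in the sources used here. In the order of the 4 stages, wildtype PA1 had 5, 5, 5 and 3 libraries, wildtype PA2 had 4, 4, 5 and 3, and both arches labelled Hoxa2-/- had 4, 5, 5 and 3. There were 35 embryos, and 33 of them are represented by both arches, so PA1 and PA2 of 1 number are a pair from 1 embryo. Each library is a whole arch with all its cell types, and in such bulk RNA fewer cells of a type and less RNA per cell cannot be told apart.

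The deposited values are whole reads divided by a factor for each library and come close to CPM, the name used here, and a library held 8912251 to 20619153 reads. Hoxa2 followed the arch labels but went against the genotype label. Its group means were 0.107 to 0.519 CPM in PA1, 22.3 to 58.3 CPM in wildtype PA2 and 28.7 to 132 CPM in PA2 labelled Hoxa2-/-. The genotype is therefore called the label below. The libraries also fell into 2 sets that the labels do not name. The 24 wildtype libraries of all stages but E10.0 did not overlap with the other 44, which are wildtype E10.0 and all libraries labelled Hoxa2-/-, in 19 genes, none of them a member. One of the 17 higher genes, Ski, had group means of 33.8 to 78.3 CPM in the 24 and 11.1 to 18.7 CPM in the 44. No gene separated all wildtype from all labelled libraries. The label and this division therefore cannot be told apart except at E10.0, the 1 stage with both labels in the set of 44.

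A ribosome is built from ribosomal RNA and a set of ribosomal proteins, each needed in about equal number, on a small subunit that reads the mRNA and a large subunit that joins the amino acids. The mRNAs of these proteins typically begin with a C followed by a run of C and T, the 5' terminal oligopyrimidine (TOP) tract, through which growth signals control their translation together. In the face and jaws the genes are known from inherited disease: loss of 1 copy of several of them, or of ribosome assembly factors, gives craniofacial malformation in people and mice, through neural crest cells that fill the arches.

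The start regions of 8 members are shown, since the comparisons below turn on them: Rps27, Rps26, Rps12 and Rpl37a led the label differences, Rps21 and Rpl38 had the lowest mean arch differences, Rplp2 had the lowest stage difference in wildtype PA1, and Rpl7l1 was higher under the label. Each stretch runs from 60 bases before to 15 bases after an annotated RefSeq start (build GRCm38.p6), read 5' to 3' on the gene's strand. Capitals mark a TOP tract (a C with at least 4 following bases that are each C or T, its first base within 5 bases of the start) or the motif CCGGAAG on either strand.
Rps27, chr3:90213634-90213708, - strand: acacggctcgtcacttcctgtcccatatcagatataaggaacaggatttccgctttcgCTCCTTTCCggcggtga
Rps26, chr10:128626492-128626566, - strand: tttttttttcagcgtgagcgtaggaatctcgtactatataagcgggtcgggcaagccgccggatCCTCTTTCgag
Rps12, chr10:23787195-23787269, - strand: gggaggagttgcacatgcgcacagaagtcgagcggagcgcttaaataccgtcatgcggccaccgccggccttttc
Rpl37a, chr1:72711200-72711274, + strand: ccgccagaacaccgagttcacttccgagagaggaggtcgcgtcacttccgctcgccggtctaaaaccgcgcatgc
Rps21, chr2:180257319-180257393, + strand: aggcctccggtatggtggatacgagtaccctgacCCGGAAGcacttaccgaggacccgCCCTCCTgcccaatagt
Rpl38, chr11:114668520-114668594, + strand: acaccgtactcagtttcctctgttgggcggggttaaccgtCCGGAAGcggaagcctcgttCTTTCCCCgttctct
Rplp2, chr7:141447591-141447665, + strand: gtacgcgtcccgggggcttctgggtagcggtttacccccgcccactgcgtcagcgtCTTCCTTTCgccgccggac
Rpl7l1, chr17:46782642-46782716, - strand: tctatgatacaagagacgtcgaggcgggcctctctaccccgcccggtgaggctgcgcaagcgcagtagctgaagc
Of the 8 starts shown, those of Rps27, Rps26, Rps21, Rpl38 and Rplp2 had such a tract, and those of Rps12, Rpl37a and Rpl7l1 had none within 5 bases. Rps21 has a further annotated start downstream, with neither a tract nor the motif in the same stretch. RefSeq start windows matched 61 of the 85 members with 72 starts. A TOP tract was found at 44.4% of the 72 starts and at 18.3% of all 32851 starts in the table, and with the C exactly at the start the shares were 19.4% and 2.51%. CCGGAAG, a motif of the ETS family of factors whose opposite strand (CTTCCGG) can share letters with a tract, was found on either strand in 36.1% of member windows from 250 bases before to 50 bases after the start, and in 8.86% of all windows. These matches describe letters only.

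Together the 85 members took 1.23% to 2.40% of a library's CPM. Per kilobase of transcript, mean levels over all libraries ran from 22.2 CPM for Rpl13a to 689 CPM for Rpl4, a large-subunit protein that lines the peptide tunnel, with a median of 249.5 CPM. Close behind Rpl4 were Rps14 at 642 and Rpl41 at 627 CPM per kilobase. Ribosomal protein genes have many processed copies elsewhere in the genome. For 81 members, 550 other rows of the table matched the coding sequence at 95% identity or more. Annotated pseudogenes made up 536 of those rows. A match covered at least 100 bases, with a lower limit for the shortest coding sequences. For members annotated as pseudogenes the whole transcript was matched. How the counting shared reads among such rows is not given in the sources used here, so single levels are uncertain where copies are many. The median member kept 69.5% of the CPM of itself and its copies, with 68.3% for Rps12, 72.1% for Rps27, 75.5% for Rps26, 87.4% for Rpl37a and 96.9% for Rpl7l1. Rps21, Rps27l and Rps4l had no such copy.

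Members varied together. Across the 68 libraries, Pearson's r of a member with the median of the other members had a median of 0.92, and it was above 0.8 for 73 of 85. This is a description: all points share libraries, depth and scaling. The low end was Rpl7l1, a paralog of Rpl7, at -0.09, followed by the pseudogene rows Rps3a3 at 0.35 and Rps4l at 0.37. Of the 16 groups, wildtype PA1 at E9.5 had the highest mean for 79 of the 85 members, and PA2 at E9.5 labelled Hoxa2-/- had the lowest for 78. The highest group mean was 1.34 to 2.77 times the lowest, with a median of 1.84. Rps12 had the widest span, from 33.6 to 93.2 CPM.

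The summed share is given for every library in replicate order, stage after stage from E9.0. In wildtype PA1 the members took 1.80, 1.82, 1.89, 1.78 and 1.78% of CPM, then 2.40, 1.84, 2.33, 2.20 and 1.93%, then 1.49, 1.77, 1.73, 1.74 and 1.90%, and last 1.89, 1.79 and 1.83%. In wildtype PA2 they took 1.63, 2.34, 1.90 and 1.85%, then 1.81, 1.75, 1.49 and 1.52%, then 1.45, 1.39, 1.66, 1.54 and 1.56%, and last 1.75, 1.69 and 1.79%. From E9.5 on, every wildtype PA1 mean was above the PA2 mean of its stage. In PA1 labelled Hoxa2-/- the shares were 1.54, 1.67, 1.59 and 1.56%, then 1.44, 1.54, 1.41, 1.66 and 1.47%, then 1.40, 1.74, 1.54, 1.75 and 1.92%, and last 1.80, 1.65 and 1.57%. In PA2 labelled Hoxa2-/- they were 1.23, 1.47, 1.76 and 1.28%, then 1.30, 1.25, 1.31, 1.26 and 1.23%, then 1.30, 1.46, 1.31, 1.42 and 1.59%, and last 1.29, 1.54 and 1.48%. PA2 was below PA1 in 29 of the 33 embryos with both arches, by a mean of 0.195 ± 0.238 percentage points (SD, n = 33) over all pairs. The 4 embryos without that order were 3 wildtype and 1 labelled, all at E9.0. The 5 libraries of labelled PA2 at E9.5 lay closest together, and each was below every wildtype library of either arch. The share of 2.34% in wildtype PA2 replicate 2 at E9.0 came with 74780 CPM of summed red blood cell genes, against 3977 to 5799.7 CPM in the other 3 libraries of that group.

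**Figure D1:**
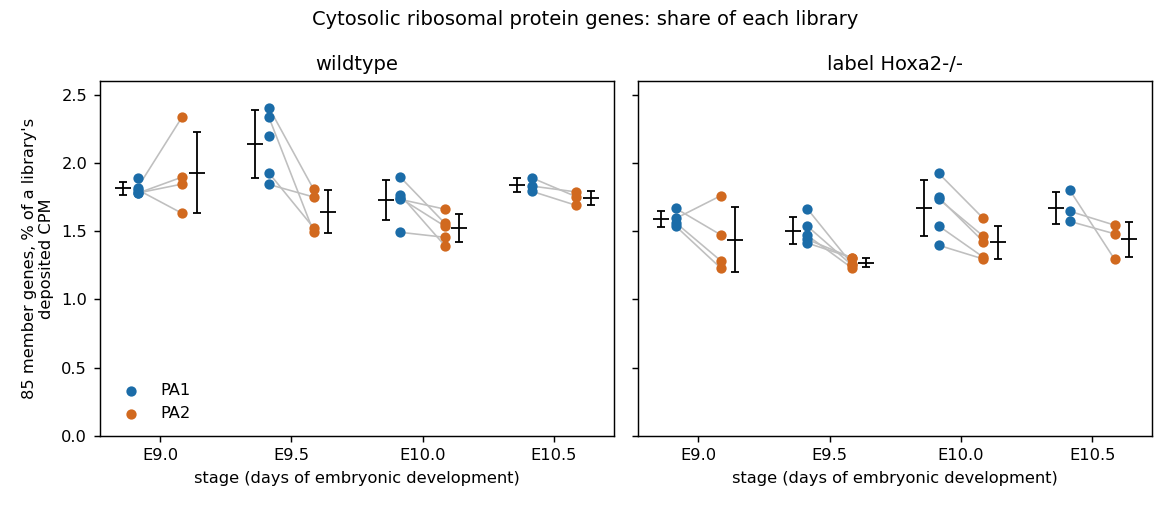
The 85 members' summed share of each library's CPM (vertical axis, in %) by stage, in wildtype (left) and under the label Hoxa2-/- (right). Each point is a library, grey lines join PA1 and PA2 of 1 embryo, and black marks give the group mean ± SD: PA1 lies above PA2 in 29 of 33 embryos, and the 5 wildtype PA1 libraries of E9.5, at 1.84% to 2.40%, include the highest values.

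The comparison of the 2 arches asks whether the jaw arch and the arch behind it differ in these genes. In wildtype embryos at E9.5 members were lower in PA2 almost throughout: 80 of 85 fell and none rose (limma adjusted p at most 0.05 over 18428 genes), against 13.7% of all genes called lower in that comparison and 26.3% in either direction. The median log2 difference of log2(CPM + 1), PA2 minus PA1, was -0.47 over the members and 0.01 over all genes. For 70 members every PA2 library was below every PA1 library, which held for 8.56% of all genes. The 5 that did not pass were Rpl7l1, the pseudogene rows Rps3a3 and Rps4l, Rps3a1 and Rpsa.

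Rps27l, a small-subunit paralog of Rps27 that p53 induces, was furthest apart. It stood at 299.9, 211, 292, 271 and 249 CPM in PA1 and 179.7, 206, 148 and 158 CPM in PA2. All 4 PA2 libraries were below all 5 of PA1, and the log2 difference was -0.61 ± 0.13 (limma adjusted p = 0.00033), where ± gives the standard error here and below. The stalk proteins, which sit on the large subunit and recruit the translation factors, moved alike. Rplp0, the base of the stalk, was at 982, 740.0, 1043, 1075 and 619 CPM in PA1 and 679, 621, 574 and 464 CPM in PA2. The 2 highest PA2 libraries were above the lowest of PA1, and the log2 difference was -0.59 ± 0.15 (limma adjusted p = 0.0033). Rplp1, which forms pairs on that base, was at 174, 138, 175, 174 and 132 CPM in PA1 and 117, 112, 98.5 and 95.5 CPM in PA2, without overlap, with a difference of -0.58 ± 0.12 (limma adjusted p = 0.00034). Its partner Rplp2 differed by -0.47 ± 0.13 (limma adjusted p = 0.0055).

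Others of the 80 ranged from -0.60 for Rps12, a protein of the small subunit's beak, and -0.58 for Rpl35a, a gene of Diamond-Blackfan anaemia, to -0.30 for Rpl23a. Rpl38, whose loss in the tail-short mouse alters the axial skeleton and the translation of Hox mRNAs, was at 134, 87.4, 120.2, 108 and 103 CPM in PA1 and 83.9, 81.6, 70.7 and 68.01 CPM in PA2. Only the lowest PA1 library, replicate 2, came near the PA2 values, and the difference was -0.53 ± 0.16 (limma adjusted p = 0.013). That call was lost in 2 of 9 fits with 1 library left out (highest limma adjusted p = 0.056, without PA1 replicate 1). Rpl7l1 differed by -0.13 ± 0.07 (limma adjusted p = 0.13). Large- and small-subunit members had the same median, -0.47 and -0.47. In fits without 1 library at a time, 72 to 81 members were called.

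At the other wildtype stages the arches were closer. At E9.0, 69 members were above 0 and 16 below in PA2, with a median of 0.06, and 0 of 85 passed in limma, against 18.7% of all genes in either direction. In limma without adjustment 0 had p under 0.05, and edgeR, a test on the recovered read counts, called 0. In 0 members was every PA2 library lower, against 8.81% of all genes. Leaving out PA2 replicate 1 gave 1 call. Without PA2 replicate 2, the library rich in red blood cell genes, and the other 3 libraries rich in such or yolk sac genes, the median turned to -0.06 and 1 member passed as lower. At E10.0 all 85 were below 0 with a median of -0.24, and 1 member passed as lower, against 1.43% of all genes (5.94% in either direction). This was Rps21, a small-subunit protein, with 50.8, 54.3, 47.4, 51.5 and 63.5 CPM in PA1 and 40.4, 34.2, 39.9, 39.5 and 40.7 CPM in PA2. The groups did not overlap, and the log2 difference was -0.45 ± 0.14 (limma adjusted p = 0.039). For 10 members all PA2 libraries were below all of PA1, against 2.09% of all genes. With the embryo as a block, which allows for a shared correlation between PA1 and PA2 of an embryo, 24 members passed at E10.0. The count was 8 when the compared groups alone were fitted, 32 without 4 libraries rich in red blood cell or yolk sac genes (wildtype PA2 replicate 2 of E9.0 and 3 of E10.0, labelled PA2 replicate 3 of E9.0 and 4 of E10.0), and 0 without PA1 replicate 2 or 5 or PA2 replicate 1 or 2 or 5, 9 without PA2 replicate 3 and 24 without PA1 replicate 1. At E10.5 the median was -0.10 and 0 passed, against 1.52% of all genes, with 0 members at an unadjusted p under 0.05 and 0 called by edgeR. For 22 members the 3 PA2 libraries of E10.5 still lay below the 3 of PA1, which held for 9.6% of all genes.

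Under the label Hoxa2-/- the arch difference had the same direction at all 4 stages, with medians of -0.24, -0.31, -0.28 and -0.25. No member rose in PA2. At E9.0, 27 of 85 fell, against 12.5% of all genes called lower and 24.6% in either direction. At E9.5, 46 fell, against 3.47% and 9.58%. At E10.0, 10 fell, against 1.1% and 4.23%. At E10.5, 0 passed in limma in either direction, against 1.37% of all genes, although 36 had an unadjusted p under 0.05, and edgeR called 0. PA2 lay wholly below PA1 for 4, 64, 2 and 47 members in the order of the stages, against 7.54%, 3.35%, 2.01% and 9.03% of all genes. Over all 8 arch comparisons, which share no library, 69 members were below 0 in 7 and 14 in all 8, and 61 fell in at least 2. With the embryo as a block the counts under the label were 41, 68, 45 and 1 in the order of the stages.

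At E9.0 the small members led. Rps28, a short protein at the mRNA exit, was at 87.6, 92.3, 89.02 and 86.7 CPM in PA1 and 61.4, 72.4, 81.3 and 33.9 CPM in PA2. Rps21 was at 38.7, 51.2, 42.9 and 45.4 CPM in PA1 and 28.4, 39.6, 39.4 and 18.4 CPM in PA2. In both genes PA2 replicate 4 was lowest. PA2 stayed below PA1 for Rps28, and PA2 replicates 2 and 3 were above the lowest PA1 library for Rps21. Their log2 differences were -0.58 ± 0.14 (limma adjusted p = 0.0018) and -0.54 ± 0.15 (adjusted p = 0.0066). Rps29 and Rpl39, a protein at the end of the peptide tunnel, differed by -0.53 ± 0.16 (limma adjusted p = 0.0093) and -0.51 ± 0.15 (adjusted p = 0.0083). Without PA2 replicate 4 these 4 calls were lost, with log2 differences between -0.26 and -0.32. The same library had 1.28% of CPM on members, 11026014 reads and 22.2 CPM of yolk sac genes. Replicate 3 had 486 CPM of them and the highest member share of its group. When the compared groups alone were fitted, 0 of 85 were called at E9.0, and 58 were called without the 4 libraries rich in red blood cell or yolk sac genes. With 1 library left out, the count at E9.0 was 2 without PA2 replicate 4, 9 without PA2 replicate 1, 12 without PA1 replicate 2, 16 without PA1 replicate 4, 17 without PA1 replicate 3 and 53 without PA2 replicate 3.

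At E9.5 the leaders were Rps26, a Diamond-Blackfan gene whose protein touches the mRNA beside Rps28, at 54.3, 59.9, 63.3, 76.3 and 62.5 CPM in PA1 and 43.02, 45.5, 50.9, 49.1 and 45.4 CPM in PA2, and Rps27l. No PA2 library reached a PA1 value for Rps26, and the difference was -0.42 ± 0.12 (limma adjusted p = 0.016). Rps27l differed by -0.39 ± 0.12 (limma adjusted p = 0.027). The count at E9.5 was 14 without PA1 replicate 4, 17 without PA2 replicate 5, 23 without PA2 replicate 2, 26 without PA1 replicate 2 and 30 without PA1 replicate 5, and 16 with the values scaled to the total of genes that are not members. At E10.0 Rpl37 differed by -0.46 ± 0.13 (limma adjusted p = 0.022) and Rpl22l1, the paralog of Rpl22, by -0.41 ± 0.11 (limma adjusted p = 0.014). Rpl22l1 was at 21.3, 29.3, 23.3, 27.03 and 33.1 CPM in PA1 and 17.3, 21.04, 17.8, 19.6 and 22.99 CPM in PA2, and the groups overlapped. The count at E10.0 was 3 on the compared groups alone, 26 without the 4 libraries named above, and 0 without PA1 replicate 2 or 5, 1 without PA1 replicate 4 or PA2 replicate 1 or 3, 4 without PA2 replicate 4, 27 without PA2 replicate 5 and 52 without PA1 replicate 1. Calls for Rpl37 were lost in 5 of 10 such fits, and those for Rpl22l1 in 3.

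Markers of cell types were read beside the members. Markers of heart muscle were higher in PA2 at wildtype E9.5 for 3 of 7 genes, and their sum ran from 6.51 to 218 CPM in PA1 and 61.1 to 1037 CPM in PA2. Markers of neurons were higher for 5 of 6, with sums of 34.9 to 52.6 CPM in PA1 and 89.3 to 151 CPM in PA2. Arch mesenchyme markers were lower for 1 of 8, with sums of 542 to 631 CPM in PA1 and 489 to 523 CPM in PA2. That count is near the 13.7% of all genes called lower there, and 26.3% were called in either direction. Sums of epithelium markers (721 to 916 CPM in PA1, 800 to 1047 CPM in PA2) overlapped between the arches. Those of endothelium markers (197 to 256 CPM in PA1, 222 to 295 CPM in PA2) overlapped too. At wildtype E9.0, where no member passed, 18.7% of all genes were called in either direction. There heart muscle markers were higher in PA2 for 7 of 7 and mesenchyme markers lower for 6 of 8. Their part in the members' arch difference was not tested.

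**Figure D2:**
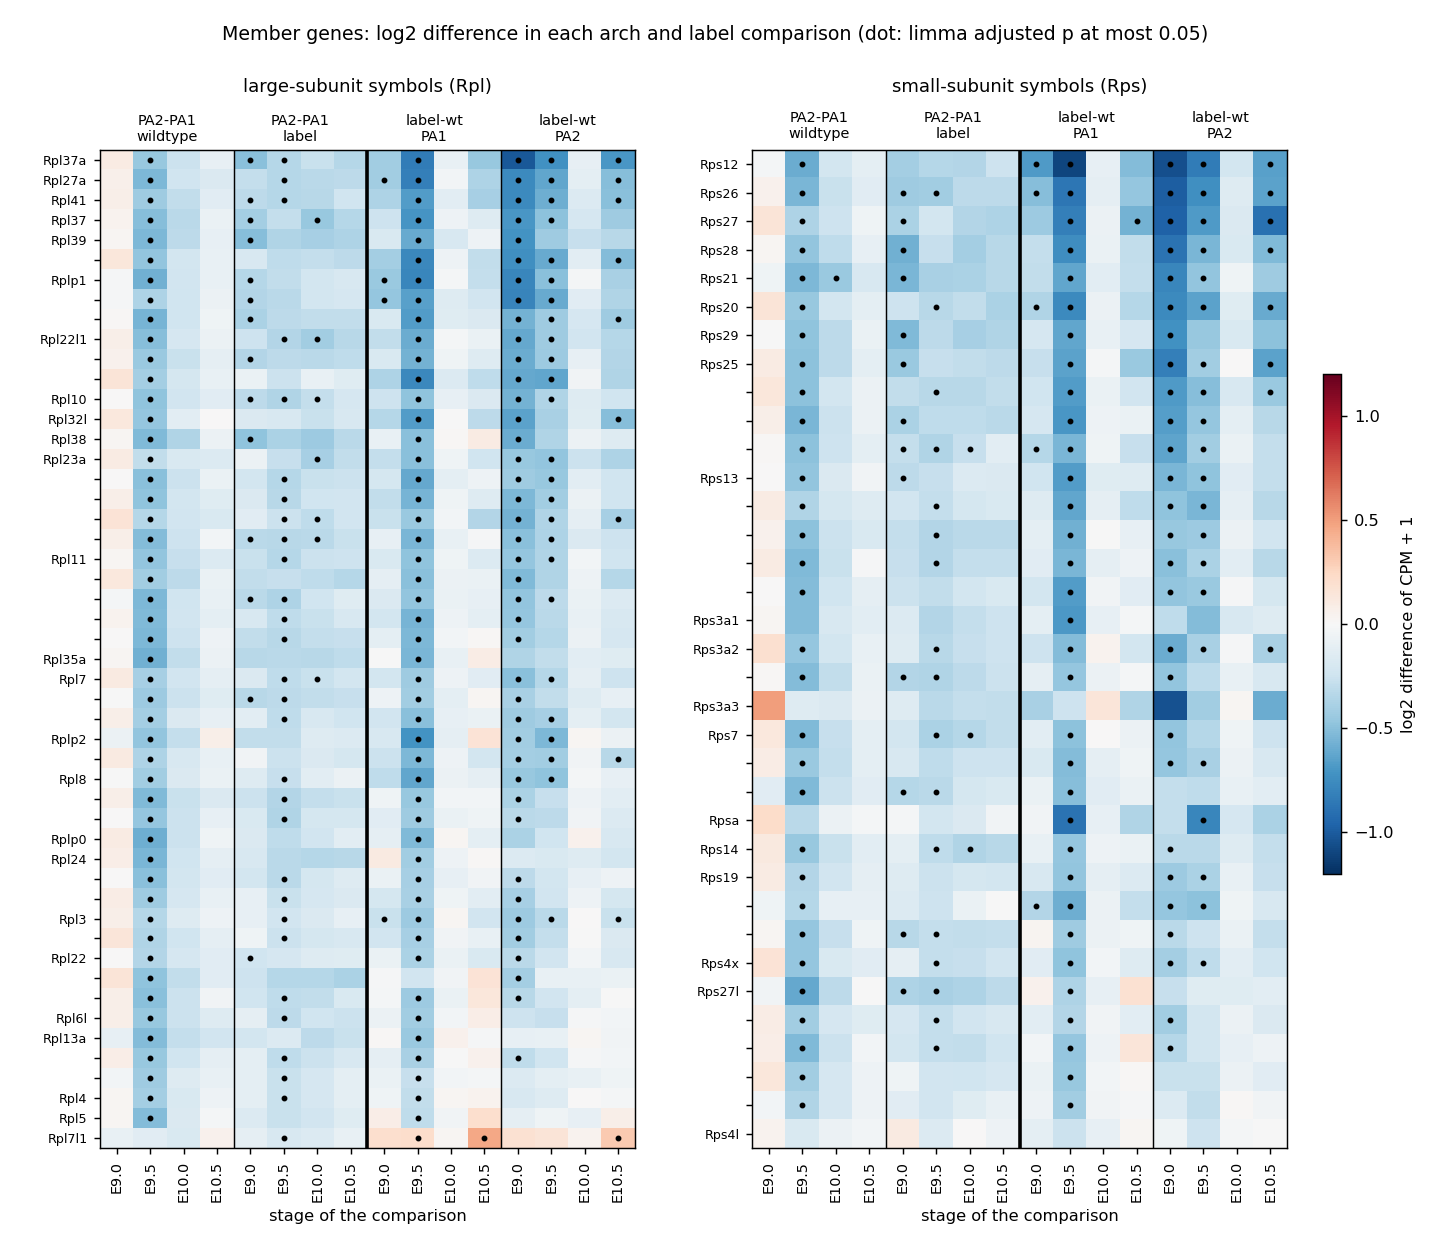
Log2 differences of all 85 members (rows, large-subunit symbols left, small-subunit symbols right, each ordered by the mean of its 16 differences, with only some rows labelled) in the 8 arch and the 8 label comparisons (columns); blue is lower and red higher in PA2 or under the label, and a dot marks a limma adjusted p of at most 0.05. The columns of wildtype E9.5 (80 dots lower) and of the label in PA1 at E9.5 (81 lower, 1 higher) are blue throughout except for the red row of Rpl7l1 in the label columns, and the label columns of E10.0 hold no dot.

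The label Hoxa2-/- was compared with wildtype in both arches, although the mean level of Hoxa2 in PA2 was higher under the label at each stage. The median member was lower under the label in both arches, with most calls at E9.0 and E9.5, at the 3 stages where the label coincides with the division of the libraries. In PA1, 9 of 85 fell at E9.0 (against 1.25% of all genes called lower and 2.08% in either direction), 81 fell and 1 rose at E9.5 (against 12.2% lower and 23.6% in either direction), and 1 fell and 1 rose at E10.5 (against 1.55% and 3.05%). The wildtype PA1 libraries of E9.5, the highest group for 79 members, are the reference both there and in the wildtype arch comparison of E9.5. Those 2 results are therefore not independent. In PA2, 68 fell at E9.0 (against 7.44% and 14%), 46 fell at E9.5 (against 2.75% and 4.48%), and 17 fell and 1 rose at E10.5 (against 3.85% lower and 10.3% in either direction). The member medians were -0.19, -0.52 and -0.11 in PA1 and -0.46, -0.38 and -0.24 in PA2, in the order of those stages, while the medians over all genes lay between -0.01 and 0.02. Of the members, 59 were below 0 in all 8 label comparisons, 46 fell in at least 3, and only Rpl7l1 was above 0 in all 8. At E10.0, where both labels lie on the same side of the division, 0 of 85 passed in limma in either arch, against 0% of all genes in PA1 and 0.0814% in PA2. There 0 members in PA1 and 3 in PA2 had an unadjusted p under 0.05, edgeR called 0 in both, and the medians were -0.06 and -0.09.

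In the order of the 4 stages, every labelled library was below every wildtype one for 43, 76, 0 and 31 members in PA1, against 4.48%, 6.2%, 0.222% and 14.4% of all genes, and for 28, 63, 0 and 47 members in PA2, against 3.98%, 4.99%, 0.57% and 15.1%. Rps12 had the lowest log2 difference in both arches at E9.0 and E9.5. In PA1 at E9.5 it was at 86.7, 76.8, 121, 101 and 81.1 CPM in wildtype and 41.5, 49.04, 40.7, 43.9 and 37.2 CPM under the label, without overlap, and the log2 difference was -1.10 ± 0.16 (limma adjusted p = 1.4e-06). In PA2 at E9.0 it was at 54.8, 121, 64.99 and 69.4 CPM in wildtype and 23.1, 43.5, 47.7 and 31.4 CPM under the label, again without overlap, with a difference of -1.06 ± 0.18 (limma adjusted p = 3.0e-05). In PA2 it differed by -0.84 ± 0.17 (limma adjusted p = 0.0014) at E9.5 and -0.65 ± 0.21 (limma adjusted p = 0.03) at E10.5.

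Rps27, a zinc-binding protein of the small subunit, was at 90.4, 103 and 90.7 CPM in wildtype PA2 at E10.5 and 46.1, 48.6 and 57.1 CPM under the label. The groups were far apart, and the difference was -0.90 ± 0.16 (limma adjusted p = 0.00014). In PA1 at E10.5 it was at 103, 101 and 90.2 CPM and 78.6, 58.9 and 60.96 CPM, also without overlap, with a difference of -0.57 ± 0.16 (limma adjusted p = 0.037), which 5 of 6 fits with 1 library left out did not keep under the threshold. At E9.0 in PA2 the values were 70.5, 112, 84.9 and 76.6 CPM and 40.4, 52.9, 58.4 and 26.8 CPM, and the difference was -0.97 ± 0.14 (limma adjusted p = 2.4e-06). At E10.0 wildtype PA1 was at 54.9, 66.1, 60.4, 61.98 and 68.3 CPM, within the range of labelled PA1, at 45.6, 60.6, 58.3, 62.7 and 71.6 CPM. The wildtype values of Rps27 at E10.0 were below those of wildtype E9.5 and E10.5 in both arches.

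Rpl37a, a zinc-binding protein of the large subunit, stood in PA2 at 153, 241, 184 and 154 CPM in wildtype and 78.8, 107, 114 and 62.6 CPM under the label at E9.0, without overlap. The difference was -1.02 ± 0.13 (limma adjusted p = 1.3e-07), and at E10.5 it was -0.70 ± 0.15 (limma adjusted p = 0.0011). Rps26 was at 81.9, 124, 85.2 and 88.1 CPM and 47.5, 51.9, 63.3 and 30.1 CPM in the same libraries of E9.0, without overlap, with a difference of -0.99 ± 0.13 (limma adjusted p = 6.8e-07). Rps20, Rps25, Rpl27a and Rplp1 followed, with differences in PA1 at E9.5 of -0.77, -0.64, -0.82 and -0.79, each with a limma adjusted p of at most 6.5e-05. Rpsa, the laminin receptor homolog, had -0.88 in PA1 and -0.79 in PA2 at E9.5 and passed in no other label comparison.

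Rpl7l1 alone rose. In PA1 at E10.5 it was at 274, 292 and 283 CPM in wildtype and 372, 415 and 387 CPM under the label. No labelled library came down to a wildtype value, and the difference was 0.46 ± 0.08 (limma adjusted p = 0.00015). In PA2 at E10.5 it was at 299, 277 and 308 CPM and 339, 395 and 369 CPM, with a difference of 0.32 ± 0.08 (limma adjusted p = 0.0055), which was lost in 2 of 6 fits with 1 library left out. In PA1 at E9.5 the difference was 0.21 ± 0.06 (limma adjusted p = 0.0095). Its paralog Rpl7 went the other way in the same libraries of PA1 at E9.5, by -0.43 ± 0.08 (limma adjusted p = 0.00015). At E10.0 wildtype PA1 had 377, 433, 414, 384 and 454 CPM of Rpl7l1, above every wildtype PA1 library of E9.0 and E10.5, and the label difference there was 0.02 ± 0.06 (limma adjusted p = 1.0).

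**Figure D3:**
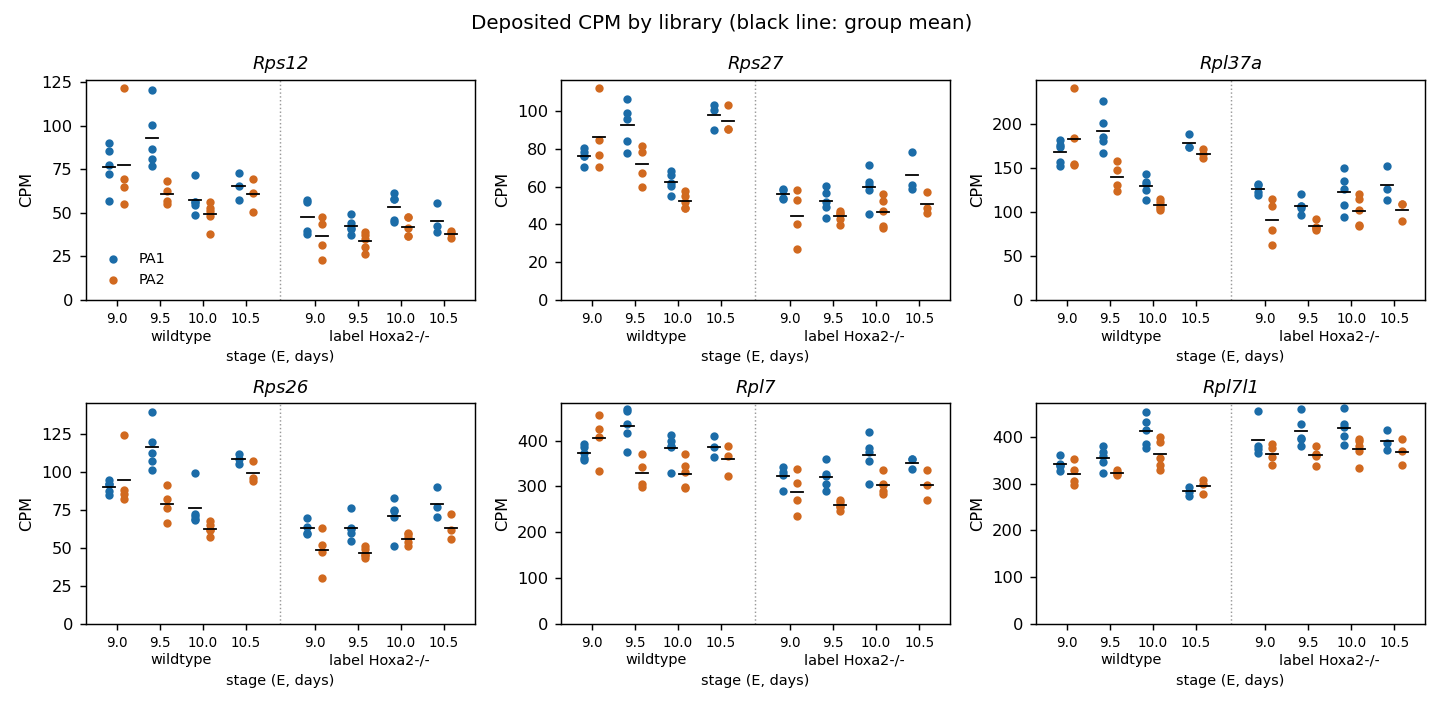
CPM of 6 members in all 68 libraries (points) by stage, with wildtype on the left and the label Hoxa2-/- on the right of each panel; black lines are group means, and each vertical axis starts at 0. Rps12, Rps27, Rpl37a and Rps26 are lower under the label at every stage but E10.0, where they lie near wildtype, Rpl7 is lower to a smaller degree, and Rpl7l1 is higher.

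Within wildtype the members were lower at E10.0 than the mean of the stages beside it. Their mean log2 value at E9.5, E10.0 and E10.5 was 7.61, 7.27 and 7.33 in PA1 and 7.15, 7.03 and 7.24 in PA2. In PA1 the step was thus mostly from E9.5. The share of all genes below by the measure that follows is not given here. The mean log2 value at wildtype E10.0 lay below the mean of the neighbouring stages E9.5 and E10.5 for 79 of 85 members in PA1 (median difference -0.19) and 73 of 85 in PA2 (median -0.16). Under the label, where all 4 stages lie on the same side, it lay below for 12 in PA1 (median 0.08) and 10 in PA2 (median 0.08). The lowest wildtype steps were -0.60 in PA1 and -0.64 in PA2, both for Rps27, a leader of the label differences, and Rpl7l1 had 0.38 and 0.23. The wildtype libraries of E9.5 and E10.5 enter both these steps and the label differences of those stages. The steps and those differences are therefore not independent. In wildtype the stage E10.0 and the division of the libraries cannot be told apart. Reads per library moved with the division: group means were 16926000 to 18704500 over the 6 groups of the 24 libraries, 12013500 to 12925100 over the 2 of wildtype E10.0 and 11406000 to 15816600 over the 8 labelled ones. Mitochondrial transcripts moved too: under the label 10 of 13 were lower in PA1 at E9.5 and 13 of 13 in PA2 at E9.0. The shares of all genes called lower there were 12.2% and 7.44%. None of the 13 differed at E10.0 in either arch, and their counts in the other label comparisons are not given here. Red blood cell genes were lower for 8 of 10 in PA2 at E9.0. The wildtype group there includes replicate 2, with 74780 CPM of these genes against 3977 to 5799.7 CPM in the rest of that group. The part of each in the label differences was not tested.

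Several counts rest on the spread shared by all 16 groups or on single libraries. The shares of all genes called that are given above belong to the fit over all 68 libraries. Shares under the other settings are not given here, so a move in a count may not be particular to the members. When the compared groups alone were fitted, the 68 calls in PA2 at E9.0 became 0, those of PA1 at E9.0 became 26, and those of PA1 at E10.5 became 9. The count in PA1 at E9.0 was 0 without labelled replicate 1 or 3, 2 without wildtype replicate 3 or labelled replicate 4, 3 without wildtype replicate 2 and 4 without wildtype replicate 1. In PA2 at E9.5 it was 22 without wildtype replicate 1 and 24 without wildtype replicate 2. In PA2 at E10.5 it was 6 without labelled replicate 1, 8 without wildtype replicate 1 and 11 without wildtype replicate 2, and in PA1 at E10.5 it was 1 without wildtype replicate 1 or 2 or 3 or labelled replicate 2 or 3 and 5 without labelled replicate 1. In PA2 at E9.0 it stayed at 46 or more without any 1 library, the lowest being without wildtype replicate 2, the library rich in red blood cell genes.

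Members with short coding sequences had the lower label differences. In PA2 at E9.0 the label median was -0.60 over the 40 coding members below the median coding length of 454.5 bases and -0.41 over the 40 above. Spearman's rho between coding length and the label difference over the 80 coding members was 0.223 to 0.593 in the 8 label comparisons. In the 8 arch comparisons it was -0.0086 to 0.770, highest at E9.0 under the label. The members are points that share the same libraries, so these are descriptions without a test.

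Whether the label difference itself differs between the arches was tested directly. In limma 0 of 85 members passed at any of the 4 stages, against 0%, 0.0109%, 0.0163% and 0.038% of all genes. An unadjusted p under 0.05 was reached by 40, 1, 0 and 0 members, and edgeR called 0 at each stage. The medians, PA2 minus PA1, were -0.30, 0.15, -0.03 and -0.13. At E9.0 Rpl37a differed by -0.61 ± 0.18 (limma adjusted p = 0.82), and for Rps27 the difference was -0.53 ± 0.20 (limma adjusted p = 0.82).

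From E9.0 to E10.5, when the arches grow and fill with mesenchyme, most members did not pass, although a large share of all genes did. In wildtype PA1, 2 of 85 members rose and 6 fell, against 21.5% of all genes called lower and 42.5% in either direction. In wildtype PA2, 0 rose and 17 fell, against 19.4% and 36.9%. Under the label, 0 rose and 1 fell in PA1, against 16.5% and 31.2%, and 3 rose and 1 fell in PA2, against 15.1% and 30.9%. The member medians were -0.01, -0.17, 0.04 and 0.05. In PA1 the direction depended on the setting. Scaled to the total of non-member genes, 6 rose and 5 fell in wildtype PA1, with a median of 0.07, and 2 rose and 0 fell in labelled PA1. In labelled PA1, median-of-ratios scaling and edgeR each gave 1 that rose and 0 that fell. In labelled PA2, 12 rose and 0 fell without the 4 libraries rich in red blood cell or yolk sac genes. When the compared groups alone were fitted, 7 rose and 18 fell in wildtype PA1 and 5 rose and 6 fell in labelled PA1.

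The stalk protein Rplp2 led in wildtype PA1. It was at 133, 139, 144, 129 and 134 CPM at E9.0 and 83.5, 90.4 and 85.98 CPM at E10.5, without overlap, with a log2 difference of -0.64 ± 0.14 (limma adjusted p = 0.00019). Its partner Rplp1 differed by -0.24 ± 0.13 (limma adjusted p = 0.14) and Rplp0 by -0.37 ± 0.17 (limma adjusted p = 0.068). Rpl5, which carries the 5S RNA into the large subunit and binds Mdm2 when assembly stalls, was at 556, 539, 579, 629.8 and 549 CPM at E9.0 and 453, 398 and 433 CPM at E10.5. All 3 later libraries were below all 5 earlier ones, and the difference was -0.41 ± 0.12 (limma adjusted p = 0.0029). Rpl11, its partner in that complex, differed by 0.02 ± 0.12 (limma adjusted p = 0.9).

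Rpl4 was at 1219, 1162, 1164, 1229 and 1169 CPM at E9.0 and 959, 939 and 936 CPM at E10.5 in wildtype PA1, with a difference of -0.33 ± 0.09 (limma adjusted p = 0.0013). It was the single member that fell in all 4 stage comparisons, with -0.41 in wildtype PA2, and -0.24 and -0.24 in PA1 and PA2 under the label (limma adjusted p = 0.00018, 0.035 and 0.031). Its call in labelled PA1 was lost under median-of-ratios scaling, scaling to non-member genes and edgeR, and that in labelled PA2 was lost without the 4 libraries and when the compared groups alone were fitted. Rps27 rose in wildtype PA1, by 0.36 ± 0.15 (limma adjusted p = 0.042), a call lost in 5 of 8 fits with 1 library left out. The other members that fell in wildtype PA1 were Rpl8 (-0.33), Rps13 (-0.27) and Rpl7l1 (-0.27).

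In wildtype PA2 the 17 of 85 members that fell were a share similar to the 19.4% of all genes called lower. The lowest were Rplp0 at -0.52 ± 0.17 (limma adjusted p = 0.015) and Rplp2 at -0.50 ± 0.15 (limma adjusted p = 0.0061). Rpl5 at -0.45 ± 0.12 (limma adjusted p = 0.0024) and Rpl8 at -0.40 ± 0.10 (limma adjusted p = 0.0017) followed. Of the 17, 13 have large-subunit symbols, as do 50 of all 85 members. Rplp0 was at 635, 899, 771 and 619 CPM at E9.0 and 436, 451 and 645 CPM at E10.5, with overlap. The count was 4 without E9.0 replicate 2 or E10.5 replicate 2 and 30 without E9.0 replicate 1. The library left out for the low count, E9.0 replicate 2, is the one rich in red blood cell genes. In PA2 under the label Rps28 and Rps26 rose, by 0.51 and 0.43 (limma adjusted p = 0.0083 and 0.019), and the count there was 0 without E9.0 replicate 4 or E10.5 replicate 3, 7 without E9.0 replicate 2 and 8 without E9.0 replicate 3. In PA1 under the label it was 0 without E9.0 replicate 1 or 2 or 3 or E10.5 replicate 1 or 3 and 2 without E10.5 replicate 2. When the compared groups alone were fitted, the 4 stage counts were 25, 4, 11 and 0. The difference of the stage change between labels was called for 0 of 85 members by limma in either arch, against 0.0163% of all genes in PA1 and 0.591% in PA2. In that test 1 member in PA1 and 7 in PA2 had an unadjusted p under 0.05, and edgeR called 0.

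**Figure D4:**
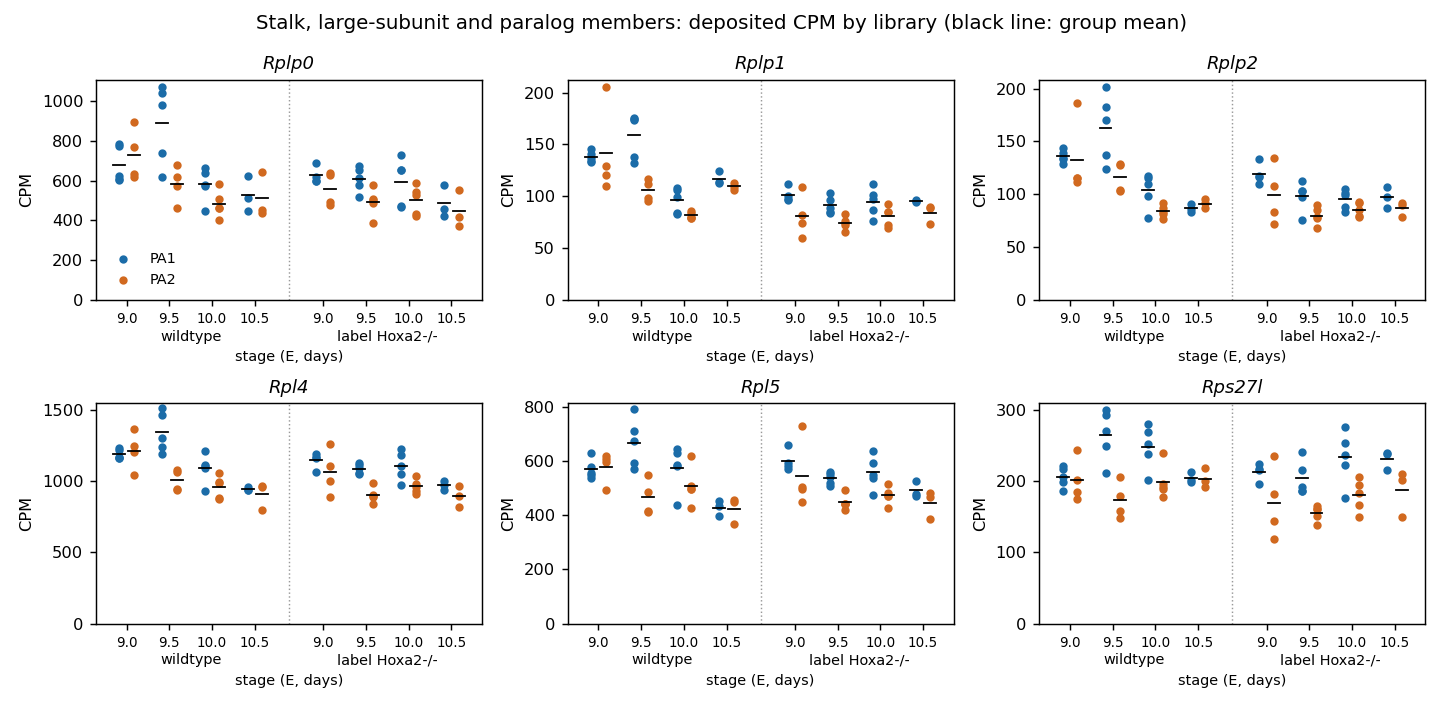
CPM of the stalk members Rplp0, Rplp1 and Rplp2, of Rpl4 and Rpl5, and of Rps27l in all 68 libraries (points) by stage, with wildtype left and the label Hoxa2-/- right in each panel; black lines are group means. Wildtype PA1 peaks at E9.5, and Rplp2, Rpl4 and Rpl5 end below their E9.0 values in wildtype PA1, while Rps27l ends near its own.

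Paralog pairs are set side by side. Rps27 and Rps27l had label differences in PA2 at E10.5 of -0.90 ± 0.16 (limma adjusted p = 0.00014) and -0.13 ± 0.15 (adjusted p = 0.66). Rpl22 and Rpl22l1, with mean levels of 177 and 44.3 CPM per kilobase, both fell under the label in PA1 at E9.5, with log2 differences of -0.38 and -0.59 (limma adjusted p = 9.1e-05 and 7.3e-05). Rps4x, on the X chromosome, passed in 5 of the 16 arch and label comparisons and the pseudogene row Rps4l in 0. The partners Rpl3l, Rpl10l and Rpl39l of Rpl3, Rpl10 and Rpl39 are not analysed here. The difference between the members of a pair was not tested.

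The 10 members best known from inherited disease or mouse mutants were followed in each comparison: Rps19, Rps26, Rpl5, Rpl11, Rpl24, Rpl27a, Rpl38, Rps7, Rps20 and Rpsa. In wildtype PA2 against PA1 at E9.5, 9 of the 10 fell, as did 80 of all 85 members, and Rpsa had -0.32 ± 0.18 (limma adjusted p = 0.19). Under the label 10 of 10 fell in PA1 at E9.5, where 81 of all 85 fell, and 7 in PA2 at E9.0, where 68 of 85 fell. Rps19, the gene most often mutated in Diamond-Blackfan anaemia, had -0.47 and -0.44 in those 2 comparisons. Rps20 and Rpl27a, known from mouse mutants with dark skin or sooty feet, had -0.77 and -0.77 in PA2 at E9.0. Rpl24, known from the belly spot and tail mouse, had -0.16 there and did not pass. In the other label comparisons 6 of the 10 fell in PA2 at E9.5, 3 in PA1 at E9.0, 3 in PA2 and 0 in PA1 at E10.5, beside 46, 9, 17 and 1 of all 85. The 10 were not tested against the other members.

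Other genes of the translation machinery were read beside the members. Of 3 listed ribosomal proteins outside the symbol rule, Fau and Rack1 fell in PA2 at wildtype E9.5, at -0.51 and -0.48. The other is not reported here. Of 17 other mRNAs with a TOP start, 14 fell and 0 rose there (median -0.38), among them Npm1, Btf3 and Tpt1. Of 77 mitochondrial ribosomal proteins, 52 fell and 0 rose (median -0.31), and of 40 genes of ribosome assembly and RNA polymerase I, 20 fell (median -0.28), led by the helicase Ddx21 at -0.74. All these limma counts stand against the 13.7% of genes called lower in that comparison.

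The label and stage comparisons gave other counts for these lists. Under the label in PA1 at E9.5, 13 of 17 other TOP mRNAs fell (median -0.37), 24 of 77 mitochondrial ribosomal proteins fell (median -0.18) and 7 of 40 assembly genes fell (median -0.05), against 12.2% of all genes called lower. In PA2 at E10.5, where 17 members fell, 14 of 40 assembly genes rose and 0 fell (median 0.31), among them Tcof1, the gene of Treacher Collins syndrome, at 0.95, Nop2 at 0.84 and Rrs1 at 0.75. Myc and Mycn rose there too, by 0.83 and 0.72, against 10.3% of all genes called. Over the stages in wildtype PA1, 35 of 40 assembly genes fell and 0 rose, with a median of -0.71 against -0.01 for the members and 42.5% of all genes called. Polr1b, a subunit of RNA polymerase I, was at -1.26, and Rrs1, a factor that brings the 5S complex into the large subunit, at -1.34. Of the Myc family list, Myc and Mycn, which drive these genes in many tissues, fell, at -1.94 and -1.47. Mycl and Mxi1 of that list rose by 0.85 and 0.58. Of 15 p53 targets, 6 rose and 4 fell there, led by Trp53inp1 at 1.89 and Eda2r at -1.28.

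**Figure D5:**
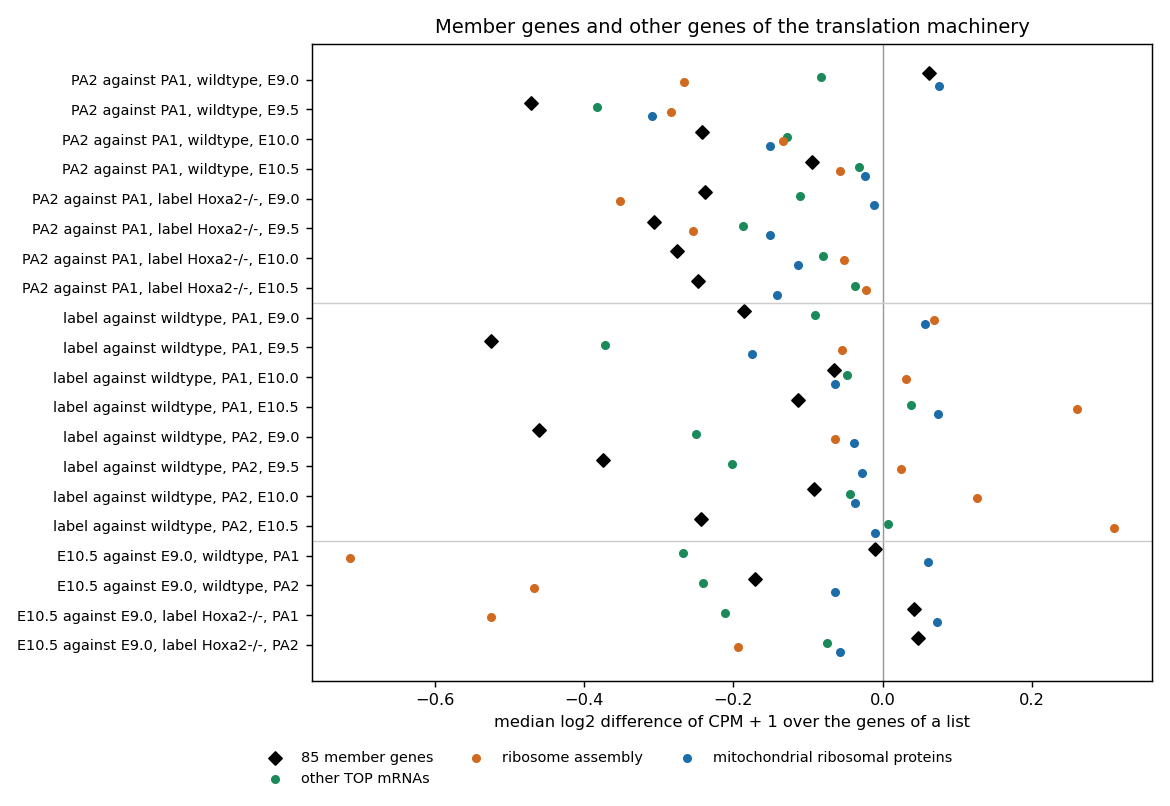
Median log2 difference (horizontal axis) over the 85 members (black diamonds) and over 3 lists of other translation genes (coloured points) in 20 arch, label and stage comparisons (rows). The members have the lowest median of the 4 sets in all 8 label rows, while ribosome assembly genes are lowest in the stage rows, at -0.71 in wildtype PA1.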

How the data were processed

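RNA from whole hand-dissected PA1 and PA2 was extracted with TRIzol, amplified with SMART-seq v4 and made into Nextera XT libraries, per the labels' protocols. The submitters' processing notes list bcl2fastq 2.18, TopHat2 2.1.1, R 3.3.2 and mm10. The counting program, annotation and strand setting are not given in the sources used here. The deposited signal is a scaled count per gene: column totals ran from 926298 to 1051959, and dividing by each library's smallest step gave whole reads (within 0.001) for 100.0% of values. The test plan had taken the unit for CPM. The values keep the authors' scaling, and the recovered totals, 8912251 to 20619153 reads per library, set the precision. One read is not an independent molecule, so these totals overstate it.

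Symbols came from GENCODE for 21921 of 21948 rows. Genes with at least 1 CPM in at least 3 libraries were kept (18428). Values of log2(CPM + 1) were tested in limma 3.58.1 under R 4.3.3, with 1 mean for each of the 16 groups over all 68 libraries, a trended prior, two-sided p and Benjamini-Hochberg adjustment over all kept genes, with a threshold of 0.05. It was tested on simulated data first. Alternatives were edgeR 4.0.16 (quasi-likelihood, on recovered reads), pseudocounts of 0.25 and 5, no filter, median-of-ratios scaling, scaling to non-member genes, the compared groups alone, the embryo as a block, and each library left out. Adding the reads of near-identical copies and leaving out the 4 libraries with over 20000 CPM of red blood cell genes or over 100 CPM of yolk sac genes were chosen after seeing the data. Libraries of 1 group differed beyond counting noise in all 116 replicate pairs (chi-square per degree of freedom 5.84 to 95.9), so each was counted as 1 sample.

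Same-numbered PA1 and PA2 come from 1 embryo by their labels. Their deviations from the group means had a median correlation of 0.347 over 33 pairs, with 30 over 0.1, against -0.124 in the other 116 pairs. The block used an estimated correlation of 0.2195. Members and lists were chosen with earlier results of these data known. Members named are, in each comparison, among the 5 of each direction with the largest log2 difference past the threshold, together with near paralogs, stalk proteins and members best known from disease or mutants. Others were named after their values were seen: those outside the call at wildtype E9.5, Rpl4, Rpl23a, Rps25 and the extremes of level. Lists name at most 3 genes in each direction. Some genes are not reported here.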

Additional observations from a re-analysis of the deposited data

Results flagged for a closer look

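Of 240 groups of 4 or 5 libraries tested over 20 members, 11 held a library whose gap to the others was too large a part of the group's range by Dixon's 95% critical value. Chance alone flags about 1 in 20 groups, and 11 of 240 is no more than that. Members of a library also move together, so the groups are not separate tests. In wildtype PA2 at E10.0, replicate 3 had 145.7 CPM of Rpl35a against 118.5 to 124.7 in the other 4, 89.76 CPM of Rpl39 against 74.42 to 77.39, and 239.6 CPM of Rps27l against 177.9 to 195.8. In the same group replicate 2 was low for Rps21, at 34.16 CPM against 39.5 to 40.69. In wildtype PA2 at E9.0, replicate 2, the library richest in red blood cell genes, had 186.8 CPM of Rplp2 against 111.8 to 115.7 in the other 3, 71.46 CPM of Rps21 against 45.93 to 49.05, and 124.3 CPM of Rps26 against 81.93 to 88.05. Replicate 1 of that group was low for Rpl5, at 493 CPM against 598.7 to 620.5.

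In wildtype PA1, replicate 1 at E9.5 had 80.52 CPM of Rps21 against 60.93 to 62.68, and replicate 5 at E10.0 had 99.11 CPM of Rps26 against 68.49 to 72.45. In PA1 labelled Hoxa2-/- at E9.0, replicate 2 had 455 CPM of Rpl7l1 against 364.9 to 379.7. These libraries are in all tests above, and the counts without each of them are part of the ranges given with the processing.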

How the results depend on the processing

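Counts of members called that moved by more than 1.5 times from those reported are given here by setting, and the cause was not tested in any case. The share of all genes called under each of these settings is not given, so these moves may not be particular to the members. edgeR on the recovered reads gave 0 for wildtype arches at E10.0 and 15 for labelled arches at E9.0. Median-of-ratios scaling gave 0 for wildtype arches at E10.0. Scaling to the total of non-member genes gave 0 for wildtype arches at E10.0, 16 for labelled arches at E9.0, 16 for labelled arches at E9.5, 6 for labelled arches at E10.0, 15 for the label in PA1 at E9.0, 8 for stages in wildtype PA2 and 2 for stages in labelled PA1. When the compared groups alone were fitted the counts were 8 for wildtype arches at E10.0, 0 for labelled arches at E9.0, 3 for labelled arches at E10.0, 26 for the label in PA1 at E9.0, 9 for the label in PA1 at E10.5, 0 for the label in PA2 at E9.0, 25 for stages in wildtype PA1, 4 for stages in wildtype PA2, 11 for stages in labelled PA1 and 0 for stages in labelled PA2. With the embryo as a block, which uses the pairing of PA1 and PA2, they were 24 for wildtype arches at E10.0, 41 for labelled arches at E9.0, 45 for labelled arches at E10.0 and 1 for labelled arches at E10.5. With the reads of near-identical copies added they were 2 for wildtype arches at E10.0 and 4 for stages in labelled PA1. Without the 4 libraries rich in blood or yolk sac transcripts they were 1 for wildtype arches at E9.0, 32 for wildtype arches at E10.0, 58 for labelled arches at E9.0, 26 for labelled arches at E10.0, 17 for the label in PA1 at E9.0, 6 for the label in PA1 at E10.5, 6 for stages in wildtype PA2, 3 for stages in labelled PA1 and 12 for stages in labelled PA2. The block changed no other count by that much. With each library left out in turn the counts ran from 0 to 1 for wildtype arches at E9.0, 72 to 81 for wildtype arches at E9.5, 0 to 24 for wildtype arches at E10.0, 2 to 53 for labelled arches at E9.0, 14 to 53 for labelled arches at E9.5, 0 to 52 for labelled arches at E10.0, 0 to 9 for the label in PA1 at E9.0, 79 to 83 for the label in PA1 at E9.5, 1 to 5 for the label in PA1 at E10.5, 46 to 75 for the label in PA2 at E9.0, 22 to 48 for the label in PA2 at E9.5, 6 to 14 for the label in PA2 at E10.5, 6 to 9 for stages in wildtype PA1, 4 to 30 for stages in wildtype PA2, 0 to 2 for stages in labelled PA1 and 0 to 8 for stages in labelled PA2. They stayed at 0 for wildtype and labelled arches at E10.5, for the label at E10.0 in both arches, and for the differences between arches or stages of the label difference. The balance of rises and falls turned in stages of labelled PA1 under median-of-ratios scaling, edgeR and non-member scaling, and in stages of wildtype PA1 under non-member scaling. The member median turned from -0.01 to 0.07 in that last case, and from 0.06 to -0.06 for wildtype arches at E9.0 without the 4 libraries. Of the single-member results, none was reversed, 323 kept direction and call under an alternative and 25 lost the call. Other counts stayed within 1.5 times in 430 cases, and 92 moved. Pseudocounts of 0.25 and 5 and no filter moved none. No scaling moved the median of all genes by over 0.1 (log2). Groups at E10.5 hold 3 libraries, which limits the precision there.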
